A study of Mus musculus with 6 samples.

Results

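The histone genes are described here as every gene of the deposited table whose symbol starts with Hist1h, Hist2h, Hist3h, Hist4h, H1f, H2af or H3f, with names holding -ps left out. The rule gave 73 of the table's 31115 genes. Of these, 58 carry a Hist name and are called replication-dependent below, and 15 carry another name and are called variant. The classes go by name only. By GENCODE M21 the variants include H3f3aos, an antisense transcript, and the processed pseudogenes H2afy3 and H3f3c. The replication-dependent class includes the pseudogenes Hist1h2al and Hist1h2aj. The study measured RNA by sequencing in 6 libraries of mouse cells that the labels name neonatal cardiomyocytes, the muscle cells of the newborn heart. In one group, 3 libraries are labelled Ad-SPTBN1, with the genotype given as overexpression of βII spectrin, the membrane skeleton protein encoded by Sptbn1. In the other, 3 libraries are labelled Ad-scramble, with no other genotype given. All 6 were kept in normal culture, in DMEM with serum, and carry day 2. The constructs, the promoter that drives them, the number of animals pooled and the purity of the cells are not described in the labels.

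The labels were checked first on Sptbn1 and on cell markers. Sptbn1 measured 16.1, 16.5 and 15.8 FPKM in libraries labelled Ad-SPTBN1, against 50.8, 48.3 and 50.1 FPKM in those labelled Ad-scramble (FPKM, fragments scaled by gene length and library total). Sptbn1 was thus lower in every library whose label names its overexpression (log2 difference -1.57 ± 0.033 SE, adjusted p = 2.72e-06, limma with Benjamini-Hochberg adjustment), and every direction below is that of the library labels as deposited. The 15 cardiomyocyte markers, of which 10 were tested, summed to 129 to 136 FPKM in the libraries labelled Ad-SPTBN1 and 83.7 to 89.5 FPKM in those labelled Ad-scramble. The 15 fibroblast markers summed to 4696 to 4922 FPKM in Ad-SPTBN1 and 4483 to 4818 FPKM in Ad-scramble, so that fibroblast transcripts were far above heart muscle transcripts in cells labelled as cardiomyocytes. Reads recovered in genes numbered 19017123 to 19638662 per library labelled Ad-SPTBN1 and 18775304 to 19512433 per library labelled Ad-scramble. In every library this sum exceeded the recovered total that scales FPKM. That total was 18466440 to 19062975 in Ad-SPTBN1 and 18223049 to 18940387 in Ad-scramble, and the reason for the excess was not tested. In bulk RNA, fewer cells of a type and less RNA per cell cannot be told apart.

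Histones package DNA: pairs of H2A, H2B, H3 and H4 form the core of the nucleosome, and linker H1 binds where DNA enters and leaves it. Replication-dependent genes are clustered, lack introns in most cases and are transcribed mainly in S phase, when new DNA needs new nucleosomes. Their mRNAs mostly end just after a stem-loop, bound by the stem-loop binding protein SLBP, in place of a poly(A) tail. Variant genes mostly lie apart from the clusters, give polyadenylated mRNAs and are also transcribed outside S phase, which makes them a main source of new histones in cells that have stopped dividing.

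The stem-loop that sets the replication-dependent mRNAs apart could be read from their annotated transcripts. Of these genes 51 of 58 lie on chromosome 13. The search took 16 bases, a stem of 6 paired bases that opens with GG and closes with CC, around a loop of 4 bases that starts with TTT, on the transcript's own strand. It was found in a GENCODE M21 transcript (GRCm38) of 39 of the 58 replication-dependent genes and of 1 of the 15 variants, H2afx. Bases past the annotated end of a transcript were not searched. Among 18246 other protein-coding genes, 9 (0.049%) held it within the last 100 bases of a transcript, a narrower search that took in 18 of the 58 replication-dependent genes and not H2afx. The stem-loops below show the forms that divide the families, 5′ to 3′, with the 16 bases in capitals and up to 5 bases on either side.
Hist1h1c: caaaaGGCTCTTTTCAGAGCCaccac
Hist1h2ad: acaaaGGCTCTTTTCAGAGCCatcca
Hist1h2bk: ccaaaGGCTCTTTTAAGAGCCactaa
Hist1h3d: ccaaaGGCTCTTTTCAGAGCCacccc
Hist1h4h: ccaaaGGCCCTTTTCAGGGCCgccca
Hist1h4i: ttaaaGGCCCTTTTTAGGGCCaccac
Hist1h4j: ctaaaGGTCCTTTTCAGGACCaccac
H2afx: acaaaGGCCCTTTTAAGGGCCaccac
The form of Hist1h1c was the most frequent, in 22 genes of the H1, H2A, H2B and H3 families, and the form of Hist1h2bk, with another last loop base, was in 6 genes. H4 genes carried a stem of their own: 7 had the form of Hist1h4h, 2 that of Hist1h4i and 1 that of Hist1h4j. H2afx, the H2A variant phosphorylated at DNA breaks, had the stem of most H4 genes around the loop of Hist1h2bk, and the H2A gene Hist2h2ac had the remaining form, the stem of Hist1h1c around the loop of Hist1h4i.

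Promoter windows of 3 of the 4 linker histone genes that passed the test below are shown. They set windows that hold the linker histone box beside a window that does not. The windows are from RefSeq (GRCm38.p6) and run from 250 bases before to 50 after its start site: Hist1h1c (H1f2 in RefSeq) at chr13:23738557-23738856 on the plus strand, Hist1h1b (H1f5) at chr13:21780576-21780875 on the minus strand and H1f0 at chr15:79027962-79028261 on the plus strand. Capitals mark the letters AAACACA, known as the H1 box, CCAAT and TATAAA, on either strand, so that ATTGG is a CCAAT of the other strand.
Hist1h1c: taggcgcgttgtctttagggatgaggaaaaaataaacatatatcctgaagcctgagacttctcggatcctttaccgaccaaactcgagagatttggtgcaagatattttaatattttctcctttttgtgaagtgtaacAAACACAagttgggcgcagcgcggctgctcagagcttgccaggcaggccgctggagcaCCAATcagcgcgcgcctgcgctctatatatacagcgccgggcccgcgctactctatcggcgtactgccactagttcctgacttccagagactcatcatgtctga
Hist1h1b: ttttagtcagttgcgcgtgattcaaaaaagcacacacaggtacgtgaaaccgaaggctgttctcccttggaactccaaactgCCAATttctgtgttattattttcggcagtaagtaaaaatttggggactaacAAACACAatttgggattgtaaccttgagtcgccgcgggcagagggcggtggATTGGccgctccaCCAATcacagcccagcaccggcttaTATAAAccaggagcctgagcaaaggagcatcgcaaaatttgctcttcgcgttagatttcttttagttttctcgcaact
H1f0: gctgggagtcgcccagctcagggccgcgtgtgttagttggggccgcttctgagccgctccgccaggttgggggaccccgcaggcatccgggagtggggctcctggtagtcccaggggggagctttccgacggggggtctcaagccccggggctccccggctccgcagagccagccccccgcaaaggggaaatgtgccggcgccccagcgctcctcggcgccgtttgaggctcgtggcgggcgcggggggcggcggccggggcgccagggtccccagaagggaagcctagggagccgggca
The H1 box letters were in 5 of the 6 windows of replication-dependent H1 genes and in 7.18% of 32851 promoter windows of the same length. Their first base lay 112 bases before the start site in Hist1h1c, 117 in Hist1h1b, 122 in Hist1h1d, 115 in Hist1h1e and 114 in Hist1h1t. CCAAT was in all 6 of these windows, in 44 of 52 replication-dependent windows and in 37.41% of all windows, but in 3 of 11 windows of H4 genes. The octamer ATTTGCAT was in 6 of 12 windows of H2A and 5 of 15 of H2B genes, against 1.74% of all windows. These counts are not independent. The windows of Hist1h2ah and Hist1h2bk overlap and share the same octamer site, as do those of Hist1h2ae and Hist1h2bg, so these sites count under both families. The windows of the variants H1f0 and H1fx held none of these letters, nor any of the E2F-like words TTTGGCGC, TTTCCCGC and TTTGCCGC, and such a match is a description of letters only. The H1f0 window ends at base 79028261, before the gene's start at base 79028450 in GENCODE M21. Bases just before that later start were not searched, so whether they hold these letters was not tested. A window was found for 63 of the 73 members, and none was found for Hist1h2bc or H2afx. The windows number 64, since the H2B gene Hist1h2be has a further RefSeq start site.

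Levels differed widely between the classes. Replication-dependent genes had a median of 0.589 FPKM over the 6 libraries and variant genes a median of 8.997 FPKM. Only 4 of 58 replication-dependent genes reached a mean of 10 FPKM, against 7 of 15 variants, and 6 replication-dependent genes and 1 variant stayed below 0.1 FPKM. The highest member was the variant H3f3b at 176.7 FPKM, followed by H1f0 at 125 and H2afz at 65.9 FPKM. The highest replication-dependent gene was Hist1h1c at 46.2 FPKM, followed by Hist1h2bc at 27.5, Hist1h4i at 15.0 and Hist1h2al at 14.2 FPKM. The test was run where the mean over all libraries reached 1 FPKM, which took in 22 replication-dependent genes and 11 variants. The other 40 members were not tested; their means ran from 0.0374 to 0.988 FPKM, and 11 replication-dependent genes and 1 variant among all members were at 0 in at least 1 library. The lowest tested member was Hist1h2bn at 1.08 FPKM and the highest untested one Hist1h2ae at 0.988 FPKM. Levels within the tested replication-dependent genes fell into a few abundant genes and a long tail, since the fifth, Hist1h4k, stood at 4.32 FPKM.

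**Figure D1:**
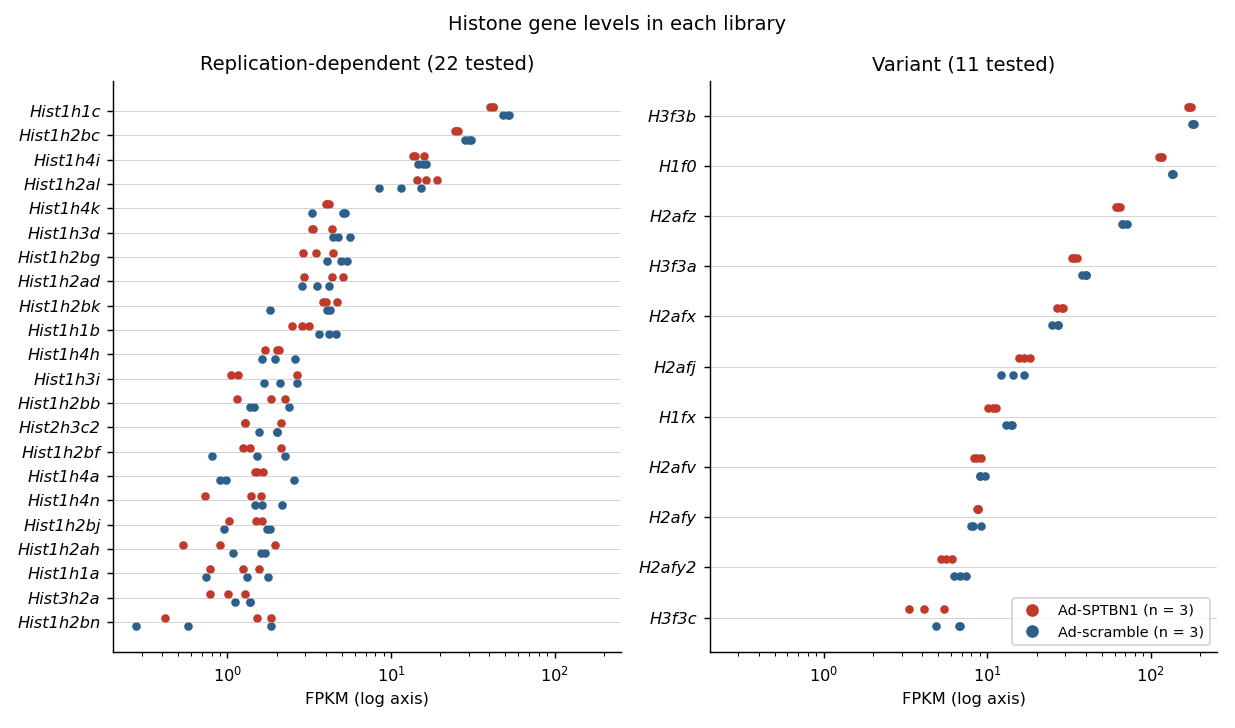
FPKM in each library (log axis) of the 33 tested histone genes, replication-dependent on the left and variant on the right, with the Ad-SPTBN1 libraries drawn above the Ad-scramble libraries of each gene. Points of the 2 groups lie apart for H1f0 and Hist1h1c, while most genes below 4 FPKM overlap.

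Across the whole table, 1391 of 12608 tested genes (11.0%) were called at an adjusted p under 0.05, 693 lower (5.50%) and 698 higher (5.54%) in the libraries labelled Ad-SPTBN1. Of the 33 tested histone genes 6 were called, and all 6 were lower. No member was called higher, with 1 higher and 12 lower at an unadjusted p under 0.05 and 0 higher and 5 lower by voom on recovered reads. Over all 12608 tested genes, 3394 had an unadjusted p under 0.05 in either direction, and voom called more genes than limma did. Every count at these thresholds below is to be read beside that. The called genes were the linker histones H1f0, Hist1h1c, H1fx and Hist1h1b, the H2B gene Hist1h2bc and the H3.3 gene H3f3a. They made up 3 of 22 replication-dependent and 3 of 11 variant genes. The replication-dependent count lies near the 11.0% called in either direction over all tested genes and so is no result about that class. The median log2 difference was -0.1 for the tested replication-dependent genes and -0.117 for the variants, beside 0.002 for all tested genes, and 15 of 22 and 8 of 11 lay below 0. Without Ad-scramble replicate 1 the replication-dependent count was 1, and without Ad-scramble replicate 2 it was 4, of which 2 were higher and the median was -0.169. A median over members that passed a filter is a description and carries no test.

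**Figure D2:**
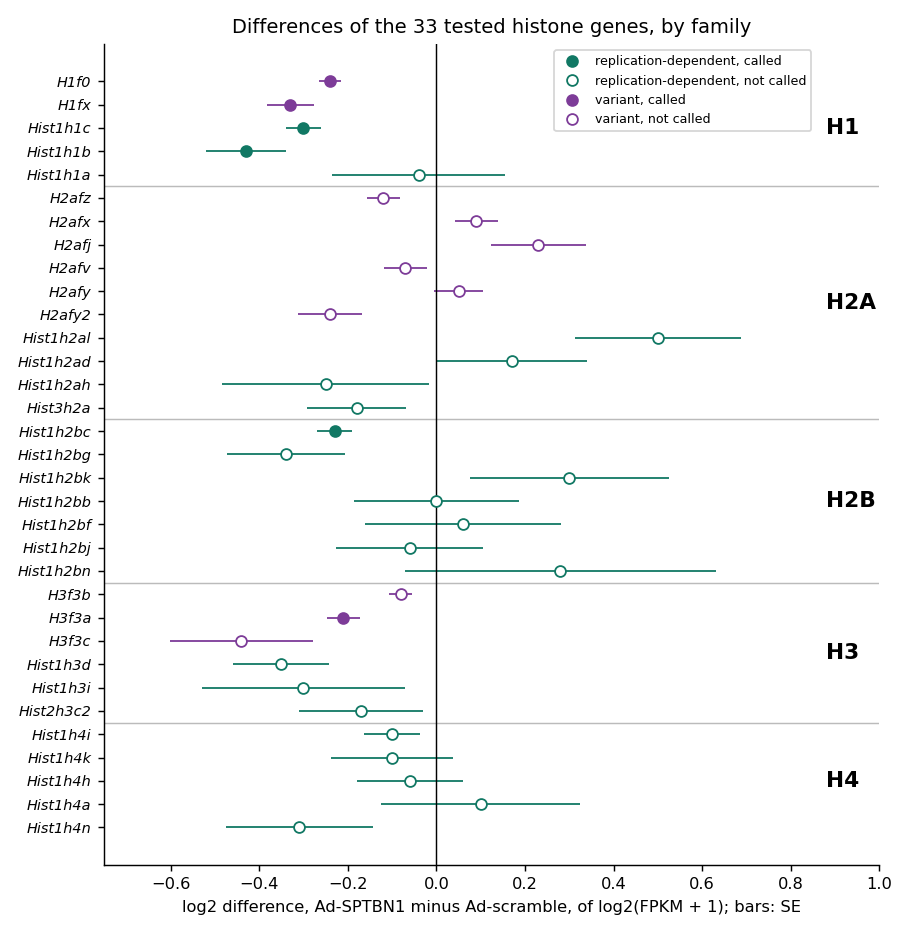
Log2 difference, Ad-SPTBN1 minus Ad-scramble, of log2(FPKM + 1) with its SE for the 33 tested histone genes, by family; filled points were called. The called linker histones lie between -0.43 and -0.24, and no gene right of 0 was called.

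Linker histones were the family with the most calls, 4 of 5 tested genes, a grouping read with the values in view. H1f0 encodes H1.0, the replication-independent linker histone known to build up in cells that leave the cycle. H1f0 (ENSMUSG00000096210, chr15:79028450-79030504, plus strand, a single exon) measured 114.9, 116.5 and 112.5 FPKM in libraries labelled Ad-SPTBN1, against 137.4, 134.4 and 135.3 FPKM in those labelled Ad-scramble. The groups did not overlap, and the mean was 84.5% of that of Ad-scramble (log2 difference -0.24 ± 0.025 SE, adjusted p = 0.00238 by limma). Hist1h1c encodes H1.2, a linker histone found in most cell types. Hist1h1c (ENSMUSG00000036181, chr13:23738808-23740367, plus strand) measured 40.1, 41.8 and 41.9 FPKM in libraries labelled Ad-SPTBN1, against 53.0, 51.9 and 48.6 FPKM in those labelled Ad-scramble. Every Ad-SPTBN1 value lay below every Ad-scramble value, at 80.7% of the mean (log2 difference -0.30 ± 0.039 SE, adjusted p = 0.00524 by limma). H1fx, which encodes the linker variant H1.10 (minus strand of chr6:87980421-87981637), stood at 10.0, 10.9 and 11.4 FPKM in libraries labelled Ad-SPTBN1, against 14.2, 13.9 and 13.1 FPKM in those labelled Ad-scramble. Its groups were apart as well, at 78.3% of the mean (log2 difference -0.33 ± 0.053 SE, adjusted p = 0.0109 by limma). These 3 genes were called in each of 16 settings of the analysis, with an adjusted p of at most 0.0209 for H1f0, 0.0278 for Hist1h1c and 0.0456 for H1fx.

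The remaining H1 genes were low. Hist1h1b, the gene of H1.5 (chr13:21779883-21780625, minus strand), measured 2.47, 2.85 and 3.13 FPKM in libraries labelled Ad-SPTBN1, against 4.19, 4.58 and 3.63 FPKM in those labelled Ad-scramble. These values rest on 35 to 62 reads per library. The groups did not overlap, and the gene was called at 68.1% of the mean (log2 difference -0.43 ± 0.091 SE, adjusted p = 0.0274 by limma). The call was held in 8 of 15 settings, and the adjusted p was 0.0823 and 0.0774 without Ad-scramble replicates 1 and 2 and 0.0747 and 0.0787 without Ad-SPTBN1 replicates 1 and 2. Hist1h1a, the gene of H1.1, had 1.195 ± 0.388 FPKM in Ad-SPTBN1 and 1.28 ± 0.521 FPKM in Ad-scramble (SD, n = 3 each), and its groups overlapped (adjusted p = 0.918 by limma). Hist1h1d, Hist1h1e, the testis-specific Hist1h1t and the oocyte-specific H1foo had means of 0.204, 0.480, 0.195 and 0.298 FPKM and were not tested.

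The summed level of the 9 H1 genes was 170.1, 173.9 and 171.1 FPKM in libraries labelled Ad-SPTBN1, against 212.4, 206.7 and 202.7 FPKM in those labelled Ad-scramble. The sum stood at 82.8% of that of Ad-scramble with no overlap of groups. H1f0, Hist1h1c and H1fx made up nearly all of it, 97.1 ± 0.214% in Ad-SPTBN1 and 96.8 ± 0.398% in Ad-scramble. Within the sum, H1f0 held 66.8 ± 0.902% in Ad-SPTBN1 and 65.5 ± 1.08% in Ad-scramble, and Hist1h1c 24.04 ± 0.464% and 24.7 ± 0.619% in the same groups (SD, n = 3 each). These shares overlapped between groups, while the summed level was lower in every Ad-SPTBN1 library.

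**Figure D3:**
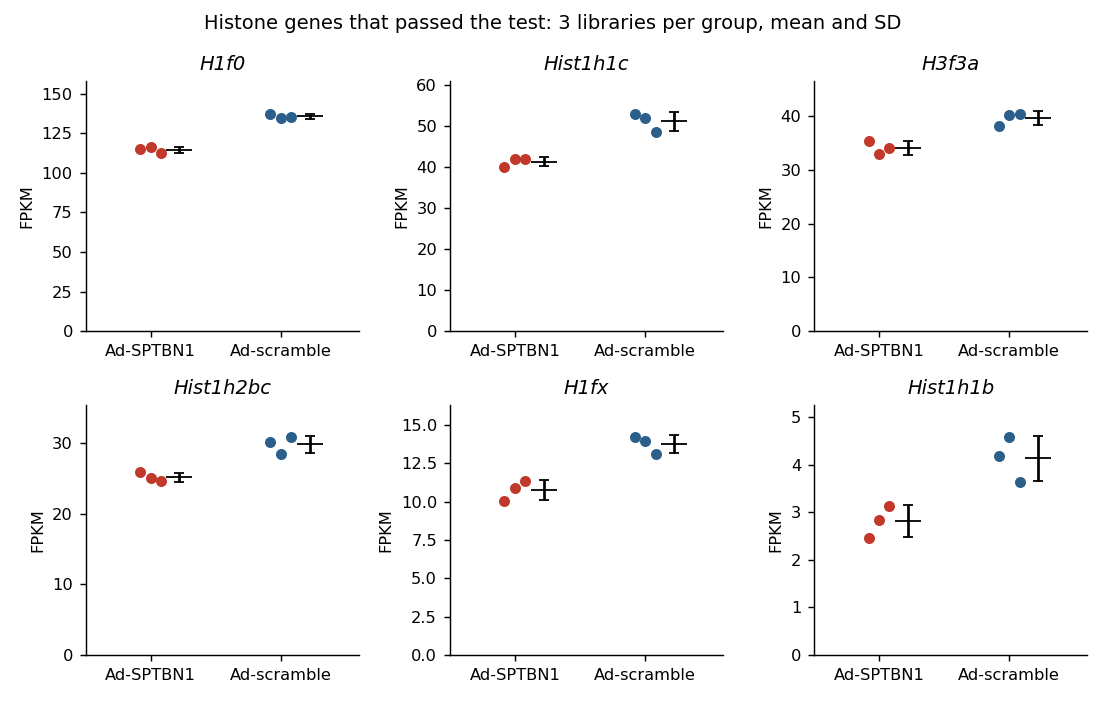
FPKM of the 6 called histone genes in each library, with the mean and SD of 3 libraries per group; every axis starts at 0. In each panel the 3 Ad-SPTBN1 points lie below the 3 Ad-scramble points, and in Hist1h1b they lie between 2.47 and 3.13 FPKM against 3.63 to 4.58 FPKM.

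Among H2A genes no tested member of 10 was called by limma or voom, with 1 higher and 2 lower at an unadjusted p under 0.05. H2afz, which encodes H2A.Z, a variant placed around transcription start sites, measured 63.4, 61.4 and 64.6 FPKM in libraries labelled Ad-SPTBN1, against 66.7, 71.7 and 67.4 FPKM in those labelled Ad-scramble. Its groups did not overlap, but the difference did not pass the test (log2 difference -0.12 ± 0.037 SE, adjusted p = 0.0871 by limma). The other H2A.Z gene, H2afv, had a log2 difference of -0.07 (adjusted p = 0.378). H2afx averaged 28.2 ± 1.23 FPKM in Ad-SPTBN1 and 26.3 ± 1.37 FPKM in Ad-scramble, and H2afj, the gene of H2A.J, 16.9 ± 1.25 FPKM and 14.4 ± 2.34 FPKM in the same groups (SD, n = 3 each). Both overlapped between groups, with adjusted p-values of 0.273 and 0.219 by limma. The macroH2A genes, whose proteins carry a large extra domain and mark repressed chromatin, differed in sign: H2afy had a log2 difference of 0.05 (adjusted p = 0.635) and H2afy2 one of -0.24 (adjusted p = 0.078), neither called.

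The replication-dependent H2A genes were the only family and class whose summed level was higher in the Ad-SPTBN1 mean, 23.67, 26.04 and 29.23 FPKM in libraries labelled Ad-SPTBN1, against 20.36, 24.29 and 18.4 FPKM in those labelled Ad-scramble, and these groups overlapped. The largest part of either sum came from Hist1h2al, which GENCODE M21 annotates as a processed pseudogene outside the main clusters. Hist1h2al measured 16.4, 14.5 and 19.2 FPKM in libraries labelled Ad-SPTBN1, against 11.5, 15.2 and 8.44 FPKM in those labelled Ad-scramble. One Ad-scramble library lay inside the Ad-SPTBN1 range and the gene was not called (log2 difference 0.50 ± 0.188 SE, adjusted p = 0.138 by limma), but without Ad-scramble replicate 2 the adjusted p was 0.0493. Of its 50-base words 67.6% also occur in another gene, so how its reads were counted bears on this value. Hist1h2ad had a log2 difference of 0.17 (adjusted p = 0.582).

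In the H2B family Hist1h2bc was called and 6 other tested genes were not. Hist1h2bc (ENSMUSG00000018102, chr13:23684199-23692908, plus strand) measured 25.9, 25.0 and 24.6 FPKM in libraries labelled Ad-SPTBN1, against 30.1, 28.4 and 30.8 FPKM in those labelled Ad-scramble. The groups were apart, at 84.5% of the mean (log2 difference -0.23 ± 0.039 SE, adjusted p = 0.0128 by limma). Without Ad-scramble replicate 1 the adjusted p was 0.0509. The gene held no stem-loop in its annotated transcript, and 30.6% of its 50-base words occur in another gene, most often Hist1h2br. Hist1h2bg had a log2 difference of -0.34 ± 0.133 SE and was not called (adjusted p = 0.151 by limma). The sum over 16 H2B genes was 42.0, 42.0 and 42.4 FPKM in libraries labelled Ad-SPTBN1, against 48.0, 46.0 and 48.1 FPKM in those labelled Ad-scramble, and did not overlap. Hist1h2bc made up the largest part of this sum and of its difference, so the sum is no result about the family. The 7 tested H2B genes had a median log2 difference of 0.003.

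H3.3 is the H3 variant that replaces H3 outside replication, and H3f3a and H3f3b encode the same protein. H3f3a (ENSMUSG00000060743, chr1:180800832-180813943, minus strand) measured 35.3, 32.9 and 34.0 FPKM in libraries labelled Ad-SPTBN1, against 38.1, 40.2 and 40.4 FPKM in those labelled Ad-scramble. It was called at 86.1% of the mean with no overlap (log2 difference -0.21 ± 0.038 SE, adjusted p = 0.0161 by limma). The adjusted p was 0.0507 without Ad-scramble replicate 2, and 0.0553 and 0.0563 without Ad-SPTBN1 replicates 2 and 3. The more abundant H3f3b measured 175.7, 169.0 and 171.3 FPKM in libraries labelled Ad-SPTBN1, against 180.1, 179.5 and 184.6 FPKM in those labelled Ad-scramble. Its values did not overlap either, but the mean was 94.8% of that of Ad-scramble and it was not called (log2 difference -0.08 ± 0.026 SE, adjusted p = 0.112 by limma). The 2 genes held 93.4 ± 0.298% of the summed H3 level in Ad-SPTBN1 and 92.5 ± 0.641% in Ad-scramble (SD, n = 3 each). H3f3c, annotated as a processed pseudogene of which 73.8% of the 50-base words occur elsewhere, mainly in H3f3a, had a log2 difference of -0.44 ± 0.161 SE (adjusted p = 0.131 by limma).

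Of the replication-dependent H3 genes 3 were tested and none was called by limma or voom, with 1 lower at an unadjusted p under 0.05. Hist1h3d measured 4.37, 3.30 and 3.34 FPKM in libraries labelled Ad-SPTBN1, against 5.62, 4.75 and 4.45 FPKM in those labelled Ad-scramble. The values did not overlap, at a log2 difference of -0.35 ± 0.108 SE and an adjusted p of 0.0837 by limma, and without Ad-SPTBN1 replicate 1 the adjusted p was 0.0406. H4, which has no variant gene among the members, had 5 tested genes, none called by limma or voom and none at an unadjusted p under 0.05. Hist1h4i measured 15.9, 13.6 and 14.0 FPKM in libraries labelled Ad-SPTBN1, against 16.3, 14.6 and 15.7 FPKM in those labelled Ad-scramble, and the groups overlapped (adjusted p = 0.383). Hist1h4k averaged 4.09 ± 0.107 FPKM in Ad-SPTBN1 and 4.55 ± 1.09 FPKM in Ad-scramble (SD, n = 3 each) and was not called (adjusted p = 0.684), but without Ad-scramble replicate 3, its lowest library, the adjusted p was 0.0333. Hist1h4a averaged 1.54 ± 0.0971 FPKM in Ad-SPTBN1 and 1.48 ± 0.927 FPKM in Ad-scramble (SD, n = 3 each; adjusted p = 0.823 by limma), but without Ad-scramble replicate 2, its highest library, it was called higher (log2 difference 0.39, adjusted p = 0.0485), and without Ad-scramble replicates 1 and 3 its log2 difference was -0.03 and -0.06.

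The values of H1 and core families are set side by side with no test between them. The 5 tested H1 genes had a median log2 difference of -0.302, and the 28 tested core histone genes, of which 2 were called, one of -0.087. Over all tested genes 11.0% were called in either direction and 5.50% were called lower, as both of these core genes were. The core count lies near these shares and so is no result about the core families. The summed level in Ad-SPTBN1 was 82.8% of that in Ad-scramble for H1, 102.1% for H2A, 88.97% for H2B, 92.4% for H3 and 90.5% for H4, and the library values of H2A and H4 overlapped between groups. The difference of the H2B sum came largely from the called gene Hist1h2bc. All 58 replication-dependent genes summed to 150.6, 149.6 and 153.5 FPKM in libraries labelled Ad-SPTBN1, against 170.5, 170.9 and 158.9 FPKM in those labelled Ad-scramble. The 15 variants summed to 470.8, 464.3 and 470.4 FPKM in libraries labelled Ad-SPTBN1, against 508.4, 514.3 and 511.8 FPKM in those labelled Ad-scramble. Neither sum overlapped between groups, and they stood at 90.7% and 91.6% of Ad-scramble. Without annotated pseudogenes, chosen as an alternative after the values were seen, the replication-dependent sum was at 86.8%. Hist1h1c and Hist1h2bc alone held 43.9 ± 0.668% of the replication-dependent sum in Ad-SPTBN1 and 48.5 ± 1.50% in Ad-scramble (SD, n = 3 each). Hist1h1c averaged 41.27 FPKM in Ad-SPTBN1 and 51.12 FPKM in Ad-scramble, and Hist1h2bc 25.16 and 29.77 FPKM. The replication-dependent sum averaged 151.2 FPKM in Ad-SPTBN1 and 166.8 FPKM in Ad-scramble. Most of its difference thus came from these called genes, so the sum is no result about all 58 genes.

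**Figure D4:**
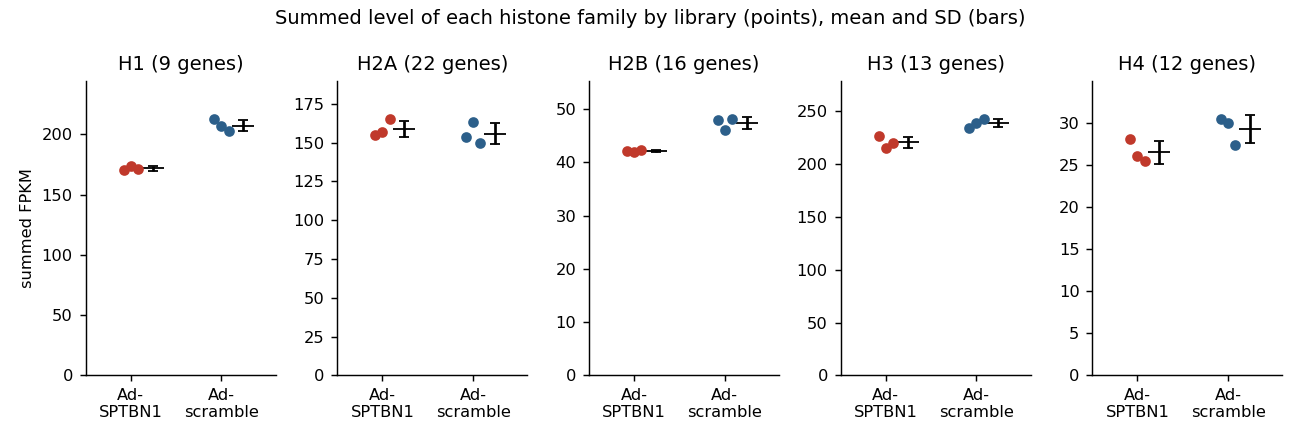
Summed FPKM of the members of each histone family in each library (points) with mean and SD of 3 libraries per group, on axes that start at 0. The groups are apart for H1, H2B and H3 and overlap for H2A and H4. The difference in H2B came largely from the called gene Hist1h2bc.

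The low level of most replication-dependent genes limits what could be seen. Of the 22 tested ones 13 had under 50 reads in every library, as had 39 of the 40 untested members. The median share of 50-base words found in another gene was 49.4% for replication-dependent genes and 9.7% for variants, and 45 of 58 and 4 of 15 genes had more than 20%. Among called genes this share was 5.7% for H1f0, 8.5% for Hist1h1c, 14.0% for H1fx, 0.0% for Hist1h1b, 30.6% for Hist1h2bc and 27.1% for H3f3a. Exons of a gene on the opposite strand covered 7.9% of H1f0 (Gm49544), 17.5% of H1fx (Gm5577) and 22.8% of H3f3a (Gm17275 and H3f3aos), and none of Hist1h1c, Hist1h1b or Hist1h2bc. The use of strand in counting is not given in the sources used here, and the part of these overlaps in the results was not tested.

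How far the annotated mRNA runs past the stem-loop was compared with level, as a description. Of the protein-coding replication-dependent genes, 21 have a transcript that runs more than 100 bases past it, with a median of 0.509 FPKM. In 18 genes the transcript ends within 100 bases, with a median of 0.698 FPKM, and 17 genes hold no stem-loop in the annotated transcript, with a median of 0.623 FPKM. The annotated exons of these 17 genes run from 312 bases in Hist1h4k to 2620 in Hist2h2be. A stem-loop past a short annotated end would be missed, so this set describes the annotation. The medians thus lay close together, while the highest genes were in the first and last of these sets. Hist1h1c runs 840 bases past its stem-loop, Hist1h3d 752 and Hist1h4i 330, and the highest gene that ends within 100 bases was Hist1h2ad at 3.83 FPKM. The 3 called genes were Hist1h1c in the first set and Hist1h2bc and Hist1h1b in the set with no stem-loop. Whether the libraries were made from poly(A)-selected or ribosome-depleted RNA is not given in the sources used here, and its part in these levels was not tested.

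**Figure D5:**
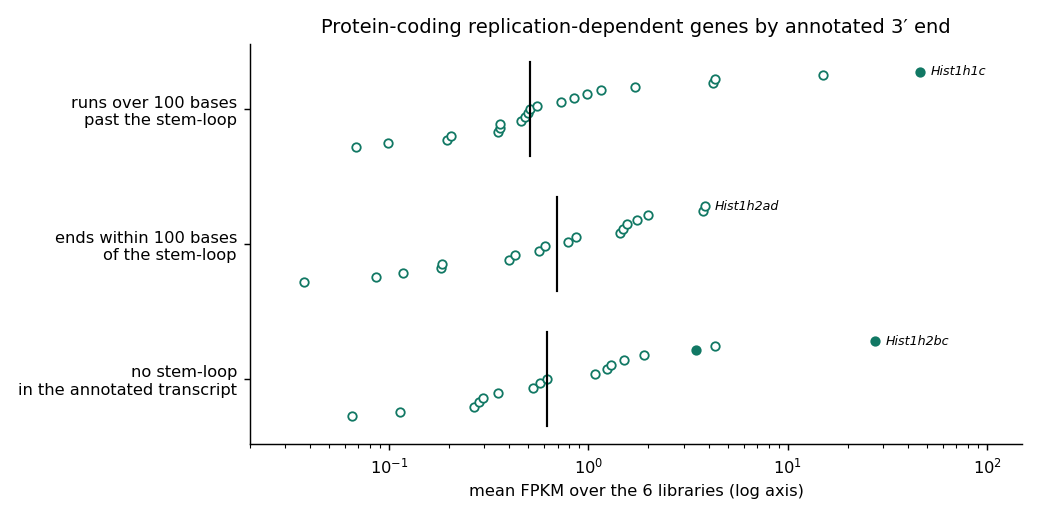
Mean FPKM over the 6 libraries (log axis) of 56 protein-coding replication-dependent genes, set out by where the annotated transcript ends relative to the stem-loop; vertical lines are medians, filled points were called and the highest gene of each row is named. Medians lie between 0.509 and 0.698 FPKM in the 3 rows, and genes above 10 FPKM are in the top and bottom rows.

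Genes that make and handle histones were read from the same fit. The 19 tested genes of histone mRNA transcription, processing and decay had a median log2 difference of 0.006, beside 0.002 for all tested genes. Slbp averaged 13.4 ± 0.395 FPKM in Ad-SPTBN1 and 13.1 ± 0.465 FPKM in Ad-scramble (SD, n = 3 each), and its groups overlapped (adjusted p = 0.72 by limma). Of 36 chaperone and exchange genes 1 was called higher, Supt6, a histone-binding elongation factor, and 3 lower: Mis18a, which helps to place CENP-A at centromeres, Tlk1, a kinase of the chaperone ASF1, and Rbbp7, a histone-binding subunit of several complexes. These 4 calls of 36 are close to the 11.0% called over all tested genes and so are no result about the list. By voom 4 were higher and 5 lower, and at an unadjusted p under 0.05 4 were higher and 7 lower. At that unadjusted threshold stood 3394 of all 12608 tested genes. Mis18a averaged 3.50 ± 0.155 FPKM in Ad-SPTBN1 and 4.49 ± 0.123 FPKM in Ad-scramble (SD, n = 3 each; log2 difference -0.29, adjusted p = 0.0146 by limma). The centromeric H3 variant gene Cenpa, which the name rule leaves out, averaged 4.0 ± 0.287 FPKM in Ad-SPTBN1 and 5.14 ± 0.166 FPKM in Ad-scramble and was called lower (adjusted p = 0.0196 by limma).

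Genes of S phase and of later cycle stages were read beside the 5.50% of all tested genes called lower. Counts at an unadjusted p under 0.05 stand beside 3394 of 12608 tested genes, a share that the S phase genes lie near. Of 35 S phase and replication genes 3 were called, all lower and near that share, with 1 higher and 9 lower at an unadjusted p under 0.05 and 1 higher and 3 lower by voom: Mcm4 of the replicative helicase, Rfc4 of the clamp loader and Ccna2, the cyclin A2 gene. The 35 genes summed to 371.4 to 378.2 FPKM in libraries labelled Ad-SPTBN1, against 392.3 to 402.3 FPKM in those labelled Ad-scramble, with a median log2 difference of -0.097. Of 20 genes of G2, mitosis and proliferation 9 were called lower by limma and 14 by voom, and none was higher by either or at an unadjusted p under 0.05, with a median of -0.247 and sums of 150.3 to 153.5 FPKM in Ad-SPTBN1 and 184.5 to 185.2 FPKM in Ad-scramble. Mki67, the Ki-67 proliferation marker, averaged 10.5 ± 0.180 FPKM in Ad-SPTBN1 and 13.4 ± 0.818 FPKM in Ad-scramble (adjusted p = 0.00839 by limma), and Ccnb1, the cyclin B1 gene, 8.02 ± 0.153 FPKM and 10.45 ± 0.655 FPKM in the same groups (adjusted p = 0.00737). Their part in the histone values was not tested.

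Markers of cell type and of RNA selection also moved with the groups. Beside their counts, limma called 11.0% of all 12608 tested genes, and 3394 had an unadjusted p under 0.05. Of the cardiomyocyte markers 6 of 10 tested were called higher by limma and 7 by voom, and none was lower by either or at an unadjusted p under 0.05. Actc1, cardiac actin, averaged 46.2 ± 2.27 FPKM in Ad-SPTBN1 and 21.3 ± 0.405 FPKM in Ad-scramble (SD, n = 3 each; adjusted p = 4.39e-05 by limma). Of 15 fibroblast markers 10 were called lower and 1, Ddr2, higher, of 13 smooth muscle and pericyte markers 5 lower and 1 higher, and of 9 tested epicardial markers 5 higher and none lower by limma, by voom or at an unadjusted p under 0.05. No marker of these lists was at 0 in any library. Of 10 endothelial markers none was called by limma and 1 was higher by voom, with 1 higher and 1 lower at an unadjusted p under 0.05, and of 10 macrophage markers 3 were tested and none passed any of these. CT010467.1, annotated as ribosomal RNA and so without a standard poly(A) tail, averaged 393.9 ± 42.4 FPKM in Ad-SPTBN1 and 74.4 ± 4.40 FPKM in Ad-scramble (adjusted p = 3.08e-05 by limma). The other tested transcripts without such a tail, Malat1 and Rn7sk, were not called by limma (adjusted p = 0.214 and 0.775). Malat1 measured 173.7, 232.7 and 174.8 FPKM in Ad-SPTBN1, against 164.6, 152.0 and 170.3 FPKM in Ad-scramble, without overlap, and voom called 2 of the 3 transcripts higher. The part of these differences in the histone values was not tested.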

How the data were processed

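RNA of 6 libraries was analysed from 1 table of FPKM values, which the authors deposited with 31115 genes. The build is named GRCm38 and mm10 per the submitters' processing notes. RNA was extracted with TRIzol and libraries made with a NEBNext Ultra kit, per the labels' protocols. Neither the aligner nor the counter, annotation or use of strand is given in the sources used here. The test was limma 3.58.1 (R 4.3.3) with its trend option, run on log2(FPKM + 1) of the 12608 genes whose mean over all libraries reached 1 FPKM. A call is an adjusted p under 0.05 (Benjamini-Hochberg over all tested genes). Differences on this scale understate the change of low genes. The sources do not state separate cultures or donors, so p-values measure only the spread between 3 libraries per group, which may be technical. Within groups, the chi-square per gene between libraries was 2.74 to 4.09, where counting noise gives about 1, and none were duplicates.

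Reads were recovered from FPKM and GENCODE M21 exon lengths. Of the values above 0, 95.5% to 95.7% per library were whole within a tolerance of 0.1. Gene IDs were matched for 31065 genes, and every member had the same coordinates in the table and in GENCODE M21. The test, the read recovery and the stem-loop search were tested on simulated data. The members, the companion lists and the groupings were chosen with earlier results of these data known. Named genes are all called members, the 8 most abundant replication-dependent genes, all variants of at least 1 FPKM, Sptbn1, and up to 3 called genes of each companion list, with further genes named after their values were seen. A gene that this rule names is not reported here. Alternatives were other pseudocounts (0.1 and 5), filters, scalings, variance models and a replicate block, and leaving out each library. Chosen after seeing the data were voom on recovered reads, sums without pseudogenes, and counts restricted to members with at most 20% of 50-base words shared.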

Additional observations from a re-analysis of the deposited data

How the results depend on the processing

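No shared deviation of same-numbered libraries was seen: the correlation of their deviations was 0.006, -0.034 and 0.01. Between libraries of different numbers it ran from -0.036 to 0.031. Whether same-numbered libraries were prepared together is not stated, and these correlations cannot show it. With the replicate number as a block, 730 genes of the table were called against 1391 without it, and the histone counts stayed at 3 replication-dependent and 3 variant genes, with H3f3a (adjusted p = 0.0553) and Hist1h1b (0.0676) lost and H3f3c (0.0416) and Hist1h3d (0.0321) gained. The table's count was 665 with no filter on low values, 2145 with voom on recovered reads, and 622 to 864 with 1 library left out. Of the 33 tested histone genes voom called 5, near its share over the whole table in either direction, so this count is no result about them. Leaving out 1 library gave 1 to 4 replication-dependent calls and 2 to 3 variant calls. The replication-dependent median log2 difference was -0.063 with a pseudocount of 5, -0.165 over the 4 genes of at least 5 FPKM, -0.043 with no filter and -0.169 to -0.094 with 1 library left out. The variant median was -0.076 with no filter and -0.137 to -0.085 with 1 library left out. The replication-dependent sum was at 86.8% of Ad-scramble without annotated pseudogenes, against 90.7% with them. Among members with at most 20% of 50-base words shared, 2 of 3 replication-dependent and 2 of 8 variant genes were called. Median scaling shifted the split of all calls to 635 higher and 744 lower. Hist1h1b was also not called with no filter (0.0966) or with voom (0.0872). The cause of these shifts was not tested. The alternatives gave 331 values for Sptbn1 and the 20 members that the naming rule takes in. Companion genes and members named later, such as Hist1h4a, are not among them. Of the 331 values, 314 kept their side of the threshold, 12 lost a call, 5 gained one and none changed sign as a call.

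At these read numbers small changes of low replication-dependent genes were not detectable: Hist1h2bn, with 2 to 13 reads, had an SE of 0.35 on the log2 scale, while H1f0, with 4270 to 5348 reads, had one of 0.025.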

Other observations

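Some H2A and H2B genes are transcribed away from each other from a shared promoter. In 7 such pairs on chromosome 13 the RefSeq promoter windows overlapped by 252 to 279 bases. In 2 of the pairs both genes were tested. Hist1h2ah averaged 1.13 ± 0.738 FPKM in Ad-SPTBN1 and 1.46 ± 0.329 FPKM in Ad-scramble, and its partner Hist1h2bk 4.17 ± 0.435 FPKM and 3.36 ± 1.34 FPKM in the same groups (SD, n = 3 each). Hist1h2ad averaged 4.13 ± 1.10 FPKM in Ad-SPTBN1 and 3.52 ± 0.646 FPKM in Ad-scramble, and its partner Hist1h2bf 1.58 ± 0.466 FPKM and 1.53 ± 0.730 FPKM in the same groups. None of these 4 genes was called by limma, and the groups overlapped in each. In the first pair the H2B gene was the higher one, and in the other the H2A gene.

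The name rule left out 4 rows with -ps in the name. One of them, H3f3a-ps1, stood at 9.97 FPKM, above 8 of the 15 variants kept, and averaged 9.83 ± 1.96 FPKM in Ad-SPTBN1 and 10.1 ± 0.770 FPKM in Ad-scramble (SD, n = 3 each; adjusted p = 0.847 by limma). How reads were shared between it and H3f3a is not given in the sources used here.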
